A study of Mus musculus with 11 samples.

Results

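Tnnt2 and Npnt smooth-muscle-like cells were examined among hepatic mesenchymal cells isolated with digestion protocol 1. A cell was a member when it held at least 3 unique molecular identifiers (UMIs) of Tnnt2 and Npnt together. By this rule 1337 of 11385 protocol 1 cells were members, out of 30999 cells in the 5 libraries of 10X Chromium together. There were 527 members among 5737 uninjured cells (9.19%, 8.45 to 9.96) and 810 among 5648 cells after CCl4 (14.3%, 13.4 to 15.3). Intervals on shares are exact Clopper-Pearson and those on levels exact Poisson, at 95%, and all of them cover counting error only.

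Cells came from Pdgfrb-BAC-eGFP reporter mice, in which eGFP is driven by Pdgfrb regulatory sequence and so marks cells that express this receptor. The uninjured library and the library after 6 weeks of CCl4, a hepatotoxin that causes fibrosis, each pooled 3 mice according to the labels. In protocol 1 livers were perfused with PBS, minced and digested with pronase, collagenase B and DNase, and GFP+ CD45- CD102- cells were sorted. Plates of Smart-seq2, a method that reads whole transcripts well by well, held protocol 1 cells of uninjured mice, of mice given CCl4 for 6 weeks and of mice 14 days after bile duct ligation (BDL). All groups carried the reporter.

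Smooth muscle contracts when myosin pulls on actin filaments coated with tropomyosin, and calponin and caldesmon bind those filaments. Tnnt2 encodes cardiac troponin T, the subunit that joins the troponin complex to tropomyosin in heart muscle. Npnt encodes nephronectin, a matrix protein and a ligand of the integrin made of the Itga8 and Itgb1 chains. Actg2 encodes the gamma actin of smooth muscle. In the liver, smooth muscle lies in the walls of the hepatic artery and the portal vein.

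Tnnt2 (GRCm38 chr1:135836354-135852260, plus strand) decided membership almost alone. Members held 3832 UMIs of Tnnt2 and 130 of Npnt in the uninjured library, and 6453 and 253 after CCl4. Npnt (GRCm38 chr3:132881745-132950291, minus strand) was seen in 10.2% and 10.4% of members, and 6 and 8 members were chosen by Npnt without any Tnnt2. Outside the members, 184 uninjured cells and 157 cells after CCl4 held Npnt, of which 87 and 67 were cells with at least 4 UMIs of the fibroblast genes Cd34, Clec3b and Dpt. The members were therefore in effect cells with Tnnt2, and Npnt marked a minority of them.

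The start of the main Tnnt2 transcript and that of Tmod1, which encodes tropomodulin 1 and was among the genes higher in members, are shown because both genes encode parts of the thin filament. Each run spans 250 bases before to 50 after the start in RefSeq (GRCm38.p6), for Tnnt2 chr1:135836084-135836383 on the plus strand and for Tmod1 chr4:46038972-46039271 on the plus strand. Capitals mark the MCAT letters CATTCC, searched on both strands.
Tnnt2: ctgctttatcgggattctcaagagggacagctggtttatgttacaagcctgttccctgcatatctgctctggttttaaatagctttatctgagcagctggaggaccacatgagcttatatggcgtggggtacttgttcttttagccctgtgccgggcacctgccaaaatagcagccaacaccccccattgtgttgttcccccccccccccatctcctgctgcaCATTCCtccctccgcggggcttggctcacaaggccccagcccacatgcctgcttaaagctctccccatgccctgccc
Tmod1: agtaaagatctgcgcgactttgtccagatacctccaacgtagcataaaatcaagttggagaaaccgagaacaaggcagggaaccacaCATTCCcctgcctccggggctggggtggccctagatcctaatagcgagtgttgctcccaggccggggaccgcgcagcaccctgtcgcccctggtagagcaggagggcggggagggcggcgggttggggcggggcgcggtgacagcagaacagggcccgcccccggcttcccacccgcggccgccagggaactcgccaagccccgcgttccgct
The letters began 27 bases before the start of Tnnt2 and 163 bases before that of Tmod1. At the other listed Tnnt2 start (chr1:135836739-135837038, plus strand) they were not found. For Tmod1 only a start with the letters was kept, so any Tmod1 start without them is not shown. Of 32851 promoters of the same length, 14.7% held them, so a match describes the sequence and marks no site.

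The uninjured library held 25965670 UMIs and the CCl4 library 31095219, with medians of 4300 and 5097.5 UMIs per cell. Between pairs of the 5 libraries, 33 to 74 cell barcodes were shared, at most 1.31% of the smaller library. Membership was graded. In the uninjured library 133 members held exactly 3 UMIs of the rule genes, while 227 cells held 2 and 648 held 1. After CCl4, 212 members held exactly 3, and 371 and 970 cells held 2 and 1. The median member held 5 UMIs in each library, and the highest 74 and 166. No gap separated members from the cells below the threshold, as the plot of cells by UMIs shows.

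**Figure D1:**
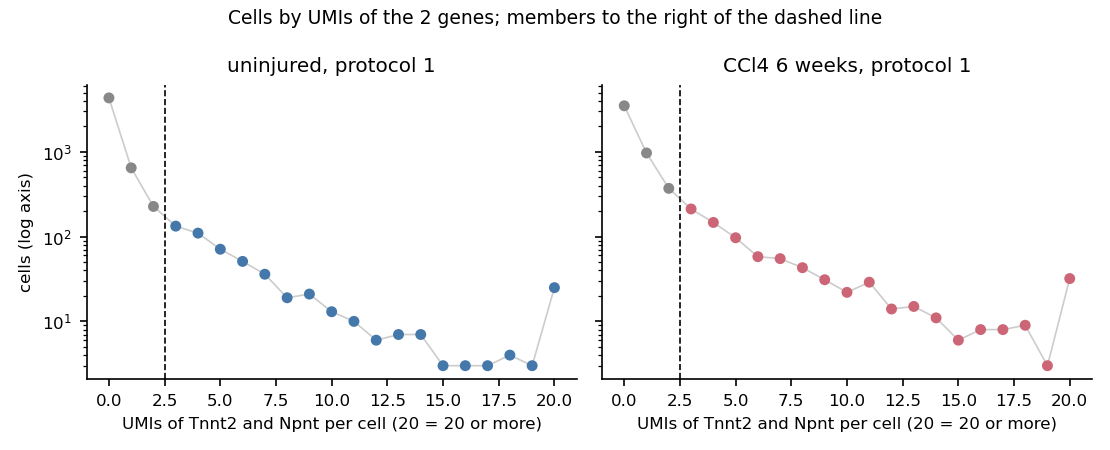
Number of cells (y axis, log scale) by UMIs of Tnnt2 and Npnt per cell (x axis, cells of 20 or more in the last point) in each protocol 1 library. The dashed line marks the threshold of 3 UMIs, and the last point pools the tail. Counts pass the threshold without a gap, from 227 cells at 2 UMIs to 133 at 3 in the uninjured library.

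Members were compared with contractile cells of the same library that held none of the 2 genes and at least 10 UMIs of Acta2, Tagln, Myh11 and Tpm2, hereafter reference cells. There were 765 reference cells in the uninjured library and 2061 after CCl4. Of the members, 90.1% and 98.5% themselves held 10 or more UMIs of these contractile genes. Acta2, smooth muscle alpha actin, was at 12234 UMIs per 1000000 UMIs (CPM) in uninjured members, 13839 in reference cells and 283 in cells with 4 or more fibroblast UMIs. After CCl4 the Acta2 levels were 14563, 6668 and 1296 CPM in the same order. Acta2 chose the reference cells, so only its level in members bears on the name smooth-muscle-like, and members of both libraries held it far above the cells with fibroblast UMIs. Cnn1, which no rule used, was at 668 and 693 CPM in members and 16.1 and 60.1 in cells with fibroblast UMIs.

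The reference cells after CCl4 held more fibroblast genes than those of the uninjured library, and differed in other genes too, such as Acta2. At least 4 UMIs of Cd34, Clec3b and Dpt were held by 41.3% of reference cells after CCl4 and 12.8% of uninjured reference cells, against 16.9% and 19.4% of members. The 8 fibroblast markers summed to 6171 CPM in CCl4 reference cells, with Gpx3 as the most abundant at 1857 CPM, and to 1804 CPM in CCl4 members, while in the uninjured library they summed to 1819 and 2440 CPM. The part of these cells in the differences below was not tested. Folds of the genes described below are therefore given over all reference cells and for cells under 4 fibroblast UMIs in both classes. In those cells 425 members and 667 reference cells remained in the uninjured library, and 673 and 1209 after CCl4.

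With 1 library per condition no test was made on 10X cells. Of 2823 genes with at least 50 CPM, 9 were 1.5-fold higher in members than in reference cells in both libraries, which is 0.319% of the genes compared, and 10 were 1.5-fold lower (0.354%). The median log2 fold over all 2823 genes was 0.02 and 0.05, a value that scaling to CPM holds near 0.

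Of the receptors and channels, Ednrb, the endothelin receptor type B, was at 88.2 CPM (75.9 to 102) in uninjured members and 26.3 (20.6 to 33.2) in reference cells, and at 56.2 (49.4 to 63.7) and 19.6 (17.2 to 22.2) after CCl4. Kcnk3, a background potassium channel, was at 214 CPM (194 to 234) against 102 (90.8 to 115) in the uninjured library, and at 106 (96.8 to 116) against 43.3 (39.7 to 47.1) after CCl4. These were 3.35- and 2.87-fold differences for Ednrb and 2.09- and 2.45-fold for Kcnk3, and without cells of 4 or more fibroblast UMIs they were 4.21 and 1.69 for Ednrb and 2.14 and 1.38 for Kcnk3. Gpbar1, a bile acid receptor, was 1.55- and 2.36-fold higher, and 1.79- and 1.37-fold without those cells. Bambi, a decoy receptor of the TGF-beta family, was 2.00- and 1.40-fold higher, and 1.92- and 1.29-fold without them.

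Of the filament genes, Actg2 was at 602 CPM (569 to 636) in uninjured members against 399 (376 to 424) in reference cells, and at 761 (736 to 788) against 232 (224 to 241) after CCl4. It was seen in 61.5% and 79.6% of members. The folds of Actg2 were 1.51 and 3.28, and 1.57 and 1.69 without cells of 4 or more fibroblast UMIs. Actg2 was at 436 and 570 CPM in members with at most 10 UMIs of Tnnt2 and Npnt, beside 399 and 232 in reference cells. Tmod1, which caps actin filaments, was 1.90- and 2.51-fold higher, but 0.985-fold in CCl4 cells that had 10 or more contractile UMIs and no fibroblast UMI. Members also held more Itih4 (1.66- and 4.05-fold), Ngb, the globin neuroglobin (1.60- and 3.74-fold), and Angpt4, a ligand of the Tie2 receptor (1.75- and 2.12-fold). Without cells of 4 or more fibroblast UMIs the folds were 1.75 and 2.37 for Itih4, 1.68 and 2.30 for Ngb, 1.75 and 1.52 for Angpt4, and 2.03 and 1.27 for Tmod1. Itih4, Ngb, Angpt4, Actg2 and Ednrb were the 5 of the 15 genes listed as higher that were 1.5-fold higher in both libraries without cells of 4 or more fibroblast UMIs. In contractile cells with no fibroblast UMI 4 of them were, and Actg2 was 1.48- and 1.57-fold higher.

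Among genes lower in members, Vtn, the matrix protein vitronectin, was at 20.02 CPM (14.4 to 27.1) against 90.3 (79.4 to 102) in the uninjured library and at 29.7 (24.8 to 35.3) against 91.4 (86.1 to 96.9) after CCl4. Colec11, a collectin and one of the HSC markers, was at 54.3 (44.8 to 65.3) against 126 (113 to 140) and at 48.2 (41.9 to 55.1) against 106 (99.98 to 112). Higd1b, a gene of pericytes, was at 48.1 (39.2 to 58.5) against 84.8 (74.3 to 96.5) and at 158 (146 to 170) against 266 (257 to 275). Contractile cells of 1 and 2 UMIs of Tnnt2 and Npnt, which were in neither class, were already below reference cells for Vtn and Colec11. Vtn was there at 26.8 and 27.9 CPM in the uninjured library and 43.4 and 23.5 after CCl4. Colec11 was at 27.8 and 74.4, and at 74.9 and 43.0. These low levels were therefore not particular to members. Higd1b was at 84.3 and 88.3, and at 213 and 187. The 8 HSC markers as a whole summed to 511 CPM in uninjured members and 547 in reference cells and to 562 and 757 after CCl4, with Ecm1 the most abundant at 366 and 339 CPM in the uninjured and 442 and 574 CPM in the CCl4 library. Ccl11, an eosinophil chemokine, Ifitm1, Fabp4, Cd24a and Thy1 were also lower in both libraries, by 1.74- to 6.19-fold. Without cells of 4 or more fibroblast UMIs Vtn was 6.31- and 4.53-fold lower, Colec11 3.82- and 4.98-fold, Higd1b 1.499- and 3.02-fold, Ccl11 1.66- and 2.01-fold, and Thy1 1.24- and 2.23-fold. Ifitm1 was then 3.36- and 4.67-fold lower, Fabp4 5.62- and 3.42-fold and Cd24a 2.17- and 3.49-fold. Ptn, the growth factor pleiotrophin, was lower by 2.09- and 2.64-fold over all cells but 3.18- and 2.39-fold higher without cells of 4 or more fibroblast UMIs, so its direction depended on those cells. Leaving those cells out, 6 of the 10 genes listed as lower were 1.5-fold lower in both libraries, namely Ccl11, Vtn, Ifitm1, Colec11, Fabp4 and Cd24a.

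**Figure D2:**
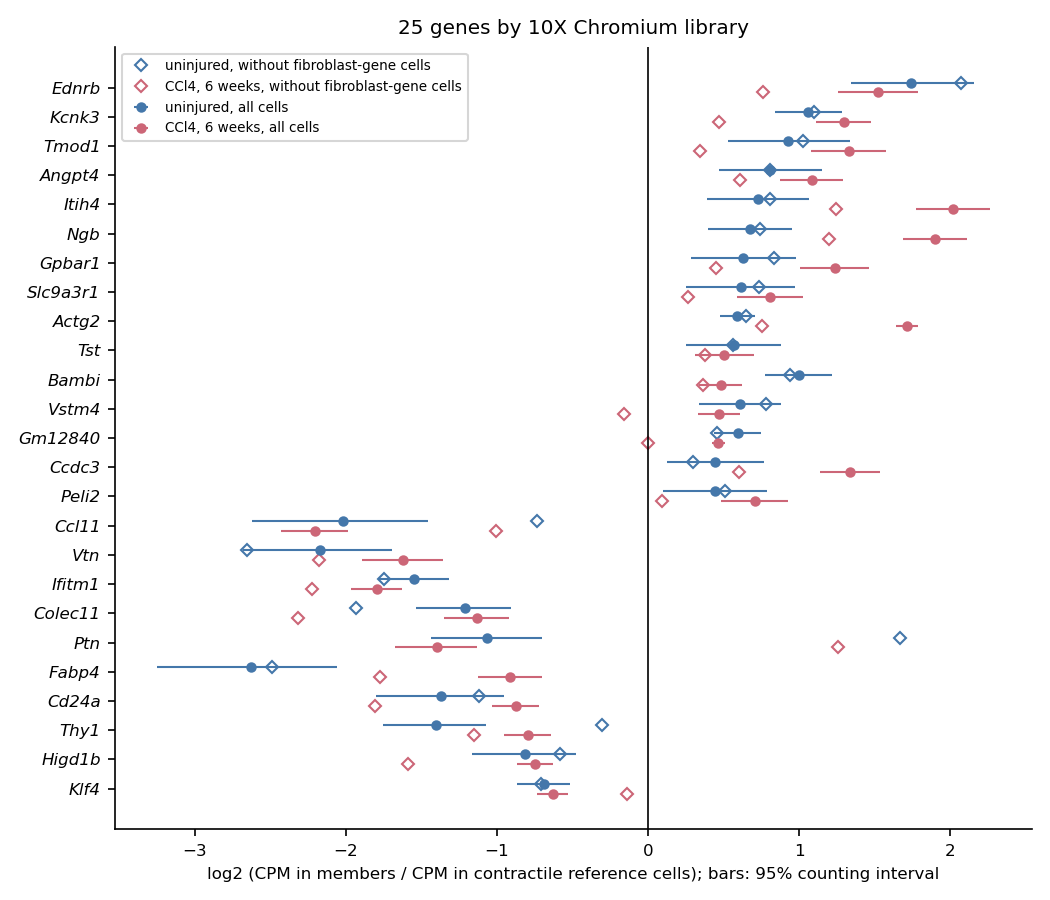
The log2 ratio of CPM in members to CPM in reference cells (x axis) for the 15 genes listed as higher and the 10 listed as lower (y axis), in uninjured (blue) and CCl4 (red) cells. Bars are 95% counting intervals and open diamonds the ratios without cells of 4 or more fibroblast UMIs, which lie on the other side of 0 for Ptn in both libraries and for Vstm4 after CCl4, and at 0 for Gm12840 after CCl4.

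Lists of genes with known roles were counted in the same way. Outside the genes of the rule, 15 of 16 contractile genes reached 50 CPM, of which 1 (Actg2) was 1.5-fold higher in both libraries and none lower, with medians of -0.11 in the uninjured and 1.05 in the CCl4 library on the log2 scale. All 14 pericyte and mural genes reached 50 CPM and 1 (Higd1b) was lower, with medians of -0.12 and 0.24. None of the 13 smooth muscle transcription factors, 7 Notch pathway genes, 9 basement membrane genes and 17 genes of fibrillar collagen and elastic fibres that reached 50 CPM was past 1.5-fold in both libraries. The medians of the collagen and elastic fibre genes were 0.18 and -1.29, and those of the 4 fibroblast markers 0.27 and -1.69, beside the fibroblast UMIs of the CCl4 reference cells given above. Of the integrins and ligands 5 reached 50 CPM, of which 0 were higher and 1 (Vtn) lower, with medians of -0.25 and 0.52. Itga8 was at 115 CPM in uninjured members and 101 in reference cells, and at 83.4 and 40.1 after CCl4. Itgb1 was at 309 CPM in uninjured members and 382 in reference cells, and at 522 and 365 after CCl4.

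The other genes of the striated muscle list were near 0 in members. Of 20 such genes none but Tnnt2 reached 50 CPM, and Myh6, Myh7, Myl2, Myl3 and Nppa had no UMI in members of either library. The 7 cardiomyocyte markers summed to 6.20 CPM in uninjured and 8.07 CPM in CCl4 members, with Actc1 the most abundant at 2.86 CPM in the first and Tnni3 at 4.15 CPM in the second, and Myh6, Myh7 and Nppa at 0 in both. No member held UMIs of 3 genes of the endothelial, leucocyte, cholangiocyte, mesothelial or Schwann lists, and 1 and 2 members did for hepatocytes. The 7 endothelial markers summed to 11.9 and 8.30 CPM, and the leucocyte gene Ptprc was at 0 in both. The 7 hepatocyte markers summed to 171 CPM in uninjured members and 38.0 in reference cells, and to 102 and 160 CPM after CCl4. Most of this was Trf, the iron carrier transferrin, at 165 and 27.8 CPM in the uninjured library and 89.2 and 143 after CCl4. Trf was not particular to hepatocytes, since on the plates it was highest in wells with fibroblast genes, as given below. Genes of dividing cells summed to 3.81 and 2.07 CPM.

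When the 2 genes were left out and the 30 nearest cells of each member were found from 10 principal components, 38.8% of the neighbours of uninjured members and 39.5% of those of CCl4 members were members too. Members were 9.19% and 14.3% of all cells, and made up 19.6% and 11.3% of the neighbours of reference cells. Reference cells made up 27.1% and 29.3% of the neighbours of members. Reference cells were 13.3% and 36.5% of all cells. The neighbourhoods were mixed, with more members around members than around reference cells. Called doublets were 8.54% and 7.90% of members and 5.49% and 5.19% of reference cells.

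Members differed among themselves with the amount of Tnnt2 and Npnt. In cells of 10 or more contractile UMIs, Ednrb stood between 4.99 and 29.5 CPM in every group of 1 to 10 UMIs of the 2 genes in both libraries, and at 405 (uninjured) and 178 CPM (CCl4) in cells of over 10. Actg2 stood between 378 and 644 CPM from 1 to 10 UMIs and at 1440 and 1472 CPM above. Higd1b was lowest in cells of over 10, at 19.96 and 93.3 CPM. Among uninjured contractile members Ednrb was at 4.99, 19.9 and 6.28 CPM in cells of 3, 4 to 5 and 6 to 10 UMIs, below the 26.3 CPM of reference cells, and after CCl4 it was at 29.5, 26.4 and 15.7 beside 19.6.

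Cells with over 10 UMIs of the 2 genes numbered 73 in the uninjured library and 145 after CCl4, and this limit was chosen after the values were seen, so the genes below are described and not tested. The 7 hepatocyte markers summed to 74.4 and 95.4 CPM in the cells with over 10 UMIs and to 191 and 103 CPM in the other members. The 7 cardiomyocyte markers summed to 13.8 and 13.0 CPM in the cells with over 10 UMIs and to 4.61 and 6.73 in the other members. Actc1 was the most abundant of them in the cells with over 10 UMIs, at 13.8 and 10.8 CPM. Osr1, a transcription factor, was at 223 and 186 CPM in the cells with over 10 UMIs against 33.4 and 41.6 in the other members. Osr1 was as high in cells with 4 or more fibroblast UMIs, at 258 and 244 CPM, and at 44.6 and 140 in reference cells, and 23.3% and 26.2% of the cells with over 10 UMIs held 4 or more fibroblast UMIs against 18.7% and 14.9% of the other members. The part of these cells in the Osr1 level was not tested. Cpe, which trims peptide hormones, was at 799 and 707 CPM against 168 and 173 in the other members, 338 and 133 in reference cells and 74.4 and 89.9 in cells with 4 or more fibroblast UMIs. Npnt itself was seen in 41.1% and 26.2% of these cells against 5.29% and 6.92% of the other members, but its UMIs are part of the sum that chose these cells.

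Other genes were lower in the cells with over 10 UMIs. Rgs5, a regulator of G-protein signalling in pericytes, was at 457 CPM in the uninjured cells with over 10 UMIs and 1009 in the other members, and at 1075 and 2470 after CCl4. Nrarp, a feedback inhibitor of Notch, was at 57.9 against 197 and at 145 against 350, and the olfactory receptor Olfr558 at 107 against 277 and at 144 against 322. Acta2 was the most abundant of the 6 smooth muscle markers in both sets of members, and these markers summed to 31778 and 33293 CPM in the cells with over 10 UMIs and to 25826 and 28969 in the other members. The cells with over 10 UMIs were deeper, with medians of 4620 and 5448 UMIs against 3339 and 4737. Doublets were called for 12.3% and 5.52% of them, and without called doublets Ednrb was at 451 and 193 CPM against 29.3 and 25.6.

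**Figure D3:**
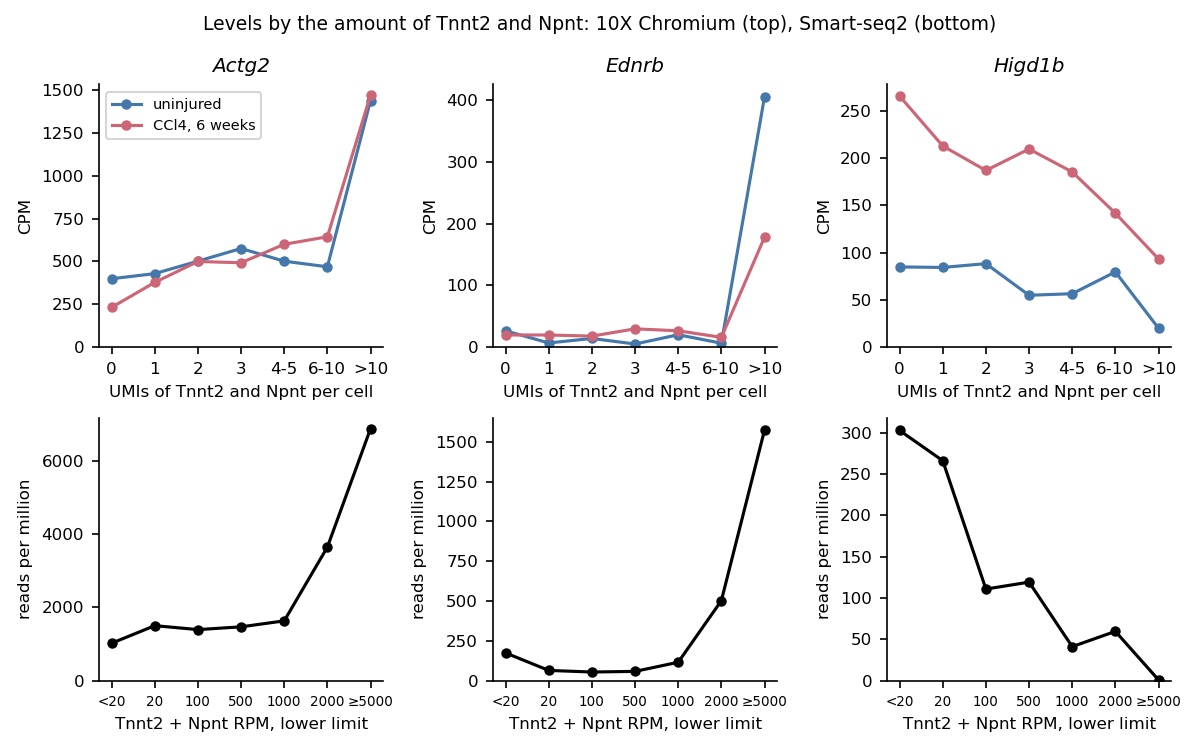
Levels of Actg2, Ednrb and Higd1b (y axes, CPM in the top row and RPM in the bottom row) by the amount of Tnnt2 and Npnt (x axes). Top, contractile cells of the uninjured (blue) and CCl4 (red) 10X libraries by UMIs of the 2 genes. Bottom, Smart-seq2 wells of plates 1 to 5 by RPM of the 2 genes. Actg2 and Ednrb were highest and Higd1b lowest in the last group of each series.

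The rule did not use the Smart-seq2 plates, so the other genes could be tested there. A portion is the wells of 1 mouse on 1 plate, and plates 1 to 5 gave 14 portions of protocol 1, 5 uninjured, 5 BDL and 4 CCl4. Of 1700 wells kept, with 124186 to 656972 reads each over all plates, 345 held at least 500 reads per 1000000 reads (RPM) of Tnnt2 and Npnt and were members. Another 352 held under 20 RPM of them with at least 2500 RPM of the 4 contractile genes and served as reference. Of 948 contractile wells 283 (29.9%) lay between the limits. The labels do not say whether portions on different plates share a mouse, and the study text counts fewer uninjured liver samples among the Smart-seq2 data it presents than the uninjured portions used here. Some portions may share a mouse, so p-values measure the spread between these portions.

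In the edgeR quasi-likelihood test with portion as a block, 3 of 10950 genes outside the rule were higher in member wells (0.0274%) and 1 was lower (0.00913%), at a Benjamini-Hochberg adjusted p of 0.05. The higher genes were Actg2, Cnn1 and Proser2, and the lower gene was Higd1b. DESeq2 called 147 and 114 genes on the same sums.

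Actg2 ranged from 994 to 4099 RPM in member wells of the 14 portions with a median of 2411, and from 450 to 2048 with a median of 896 in reference wells. It was higher in members in 14 of 14 portions, although the ranges overlapped between portions. The log2 fold of Actg2 was 1.32 ± 0.16 (SE, n = 14 portions) with an edgeR adjusted p of 0.000469. Cnn1, calponin 1, ranged from 547 to 2045 RPM (median 1550) in members and from 174 to 1248 (median 614) in reference wells, and was also higher in 14 of 14 portions, with a log2 fold of 1.22 ± 0.14 and an edgeR adjusted p of 0.000386. Without the portion block the edgeR adjusted p of Cnn1 was 0.064. In the 10X libraries Cnn1 was at 668 CPM in uninjured members and 599 in reference cells, a 1.11-fold difference, and at 693 and 247 CPM after CCl4.

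Higd1b ranged from 18.3 to 208 RPM (median 48.0) in member wells and from 50.3 to 573 (median 182) in reference wells. It was lower in members in 14 of 14 portions, by 1.95 ± 0.23 on the log2 scale, with an edgeR adjusted p of 0.000469, which was 0.063 without the portion block. Proser2, a proline and serine rich protein, was low in both classes, at a median of 8.44 RPM (0 to 62.7) in members, and at 0 in reference wells of 12 of 14 portions and at most 2.76 RPM. Its edgeR adjusted p was 0.00729, and it was higher in members in 13 of 14 portions. The call of Proser2 was lost without plate 1, 2 or 3, with edgeR adjusted p of 0.207, 0.133 and 0.212. In uninjured portions alone none of the 4 genes passed the edgeR test, with adjusted p of 0.165 for Actg2, 0.742 for Cnn1 and 1.00 for Higd1b and Proser2.

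**Figure D4:**
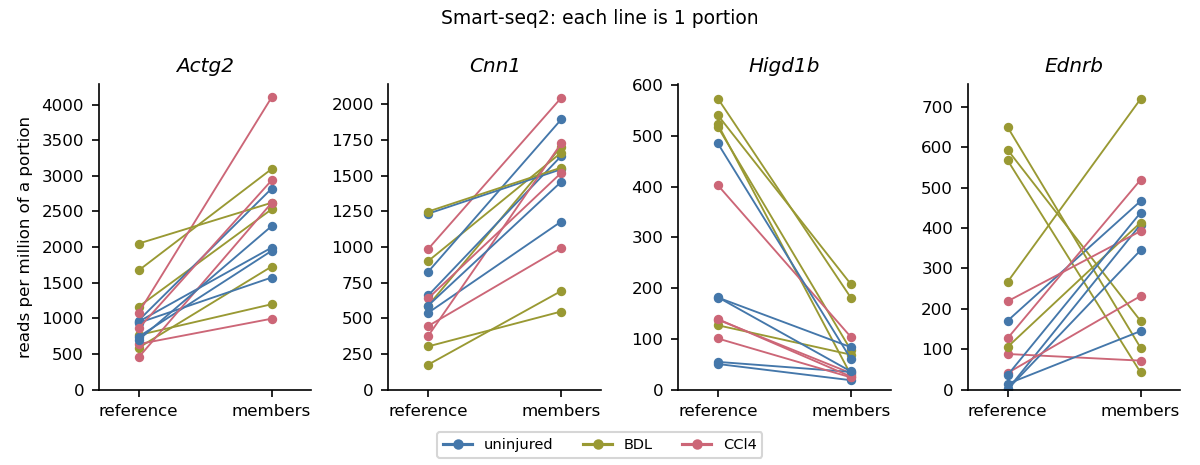
RPM (y axes, from 0) in reference and member wells of each Smart-seq2 portion (each line 1 portion; blue uninjured, olive BDL, red CCl4) for Actg2, Cnn1, Higd1b and Ednrb. All 14 lines rise for Actg2 and Cnn1 and fall for Higd1b, while for Ednrb 10 rise and 4 fall.

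Of the 25 genes listed from the 10X libraries, Actg2 and Higd1b passed this test, Gm12840 and Ccl11 were not tested on the plates, and the other 21 did not pass. Vtn was at 30.9 ± 48.5 RPM (SD, n = 14 portions) in member wells and 188 ± 162 in reference wells and was lower in members in 13 of 14 portions, with an edgeR adjusted p of 0.126. Colec11 was at 61.7 ± 50.9 against 251 ± 188 RPM and lower in 14 of 14 portions, with an edgeR adjusted p of 0.0977. Ifitm1 was lower in 13 of 14 portions, and Angpt4 and Itih4 were higher in 12 of 14, while Ngb was higher in 8 of 14 with a log2 fold of 0.30. Other genes lay on the other side of 0 from the 10X libraries, with log2 folds of -0.34 for Slc9a3r1 (higher in 7 of 14 portions), -0.18 for Vstm4 (6 of 14), -0.0064 for Gpbar1 (9 of 14), 0.27 for Klf4 (7 of 14) and 1.52 for Ptn (9 of 14). Ednrb was at 319 ± 197 RPM in members and 206 ± 231 in reference wells, higher in 10 of 14 portions with a log2 fold of 1.68 ± 0.94 and an edgeR adjusted p of 0.99. Of the gene lists, 2 of 16 contractile genes tested outside the rule were higher (Actg2 and Cnn1; median log2 fold 0.19), 1 of 14 pericyte and mural genes was lower (Higd1b; median -0.39), and none of the 10 Notch, 23 transcription factor, 21 basement membrane or 20 collagen and elastic fibre genes passed, beside a median of -0.00043 over all genes. None of the 4 striated muscle genes tested passed, with a median of -1.20. Pooled over the wells of all portions, the 7 cardiomyocyte markers summed to 200 RPM in members and 24.4 in reference wells. Actc1 gave 192 RPM of the sum in members. Trf was at 106 RPM in member wells and 128 in reference wells. In other wells with at least 1000 RPM of Cd34, Clec3b and Dpt it was at 1144.

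Wells on the plates were grouped by the amount of the 2 genes in the same way. Actg2 was at 1022 RPM in contractile wells under 20 RPM of the 2 genes, between 1394 and 1633 in the 4 groups from 20 to 2000 RPM, at 3650 from 2000 to 5000 and at 6888 above. Ednrb did not follow an even course: it was at 174 RPM in the lowest group, at 63.8, 53.8, 57.8 and 115 in the next 4, and at 503 and 1574 in the last 2. The value of the lowest group pooled portions that differed: Ednrb in reference wells ranged from 105 to 651 RPM in BDL portions, from 40.9 to 219 in CCl4 portions and from 0.095 to 170 in uninjured portions. Higd1b was at 303 RPM in the lowest group, 119 from 500 to 1000 and 0.814 above 5000. Vtn was at 185 RPM in the lowest group and at 43.8 from 20 to 100. It was at 10.8 from 100 to 500, below the limit for members, and at 69.2 from 500 to 1000. In the group of 36 wells with over 5000 RPM, 86.1% held Npnt, against 13.8% of wells between 500 and 1000, a difference that the grouping by Npnt and Tnnt2 fixes in part. In 6 portions at least 2 wells of over 5000 RPM stood beside at least 2 other members, 32 and 145 wells in all. In all 6 of them Ednrb, Osr1, Cpe, Tmsb4x, Pam, Ccdc3 and Actg2 were higher, and Rgs5, Rgs4, Nrarp and Olfr558 lower, in wells of over 5000 RPM. Median levels over these portions were 1543 against 213 RPM for Ednrb, 356 against 23.8 for Osr1 and 166 against 1276 for Rgs5. Ncam1 and Bok were higher in 5 of the 6 portions, and Gpr20 was lower in 5. Bambi was higher in 4 and lower in 2. The share of all genes with such agreement was not counted. These genes were taken from the 10X cells after their values were seen, and no test was made.

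Members were counted by condition on the plates as a share of member and reference wells. The share was 53.1% ± 19.5 (SD, n = 5 portions) in uninjured, 44.2% ± 4.91 (n = 5) in BDL and 49.1% ± 8.20 (n = 4) in CCl4 portions. The uninjured portions ranged from 28.1% to 72.1% and contained the ranges of both injuries. In exact permutation tests (two-sided, 3 comparisons) the adjusted p was 0.50 for BDL against uninjured, 0.698 for CCl4 against uninjured and 0.50 for CCl4 against BDL. These tests did not take plate into account. Plates 1, 2 and 4 held the BDL portions and plates 3 and 5 the CCl4 portions. CCl4 against BDL therefore cannot be told apart from plate. Within plates the differences split by plate: all 6 injured portions of plates 1 to 3 were below the uninjured portion of their plate, by 14.2 to 32.1 percentage points, and all 3 of plates 4 and 5 were above it, by 7.71 to 22.5. In the 10X libraries members were 40.8% (38.1 to 43.5) of members and reference cells in the uninjured library and 28.2% (26.6 to 29.9) after CCl4, and 38.9% and 35.8% without cells of 4 or more fibroblast UMIs.

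**Figure D5:**
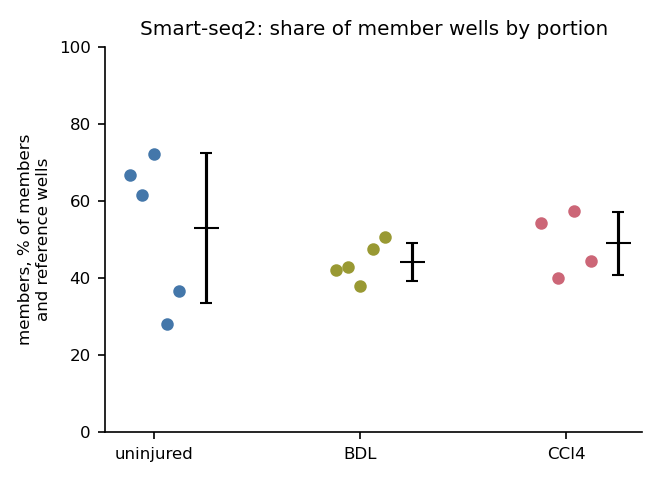
Member wells as a percentage of member and reference wells (y axis) in each Smart-seq2 portion by condition (x axis), with the mean and SD beside the points. The 5 uninjured portions spread from 28.1% to 72.1%, around all BDL and CCl4 portions.

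No gene differed between injured and uninjured member wells in the edgeR test with plate as a term. Of 12002 genes, 0 were higher and 0 lower in BDL than in uninjured portions (0% and 0%), with 450 at an unadjusted p under 0.05, and the same was found for CCl4 with 206. DESeq2 called 122 higher and 45 lower for BDL and 95 and 60 for CCl4. Actg2 was at 2124 ± 465 RPM (SD, n = 5 portions) in uninjured, 2233 ± 760 (n = 5) in BDL and 2662 ± 1281 (n = 4) in CCl4 members. Higd1b was at 46.5 ± 25.5, 113 ± 77.2 and 46.3 ± 38.3 RPM in the same order. On simulated counts with changes in the most abundant genes, the CCl4 comparison called 51 of 66 genes changed 16-fold, 7 of 66 changed 4-fold and 0 of 68 changed 2-fold. Those counts held no plate differences apart from depth.

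Between the 10X libraries, where no test was possible, members after CCl4 held more Rgs5 (2174 against 914 CPM) and Higd1b (158 against 48.1), and reference cells did too (2732 against 1018 and 266 against 84.8). Gm12840, a long transcript with no protein assigned, was at 1358 against 341 CPM in members and 983 against 226 in reference cells. The clock genes Dbp and Nr1d1 were at 107 and 54.4 CPM after CCl4 against 20.02 and 3.34 in uninjured members, and at 58.5 and 45.9 against 14.99 and 5.12 in reference cells. Tcf21, a transcription factor of mesenchyme, was lower after CCl4, at 24.0 against 84.4 CPM, and at 48.0 against 81.9 in reference cells. The matrix genes Fbln5 and Fmod were at 119 and 45.6 CPM after CCl4 against 231 and 145, opposite in direction to the reference cells (198 against 72.4 and 70.6 against 31.5). The 8 fibroblast markers moved in the same directions, from 2440 to 1804 CPM in members and from 1819 to 6171 in reference cells, and their part in these differences was not tested.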

How the data were processed

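Single-cell RNA was measured in 5 libraries of 10X Chromium and on 6 plates of Smart-seq2. The authors deposited counts: UMI counts per gene and cell, made with Cell Ranger 2.1.0 on mm10, and read counts per gene and well of reads mapped with STAR to mm10, per the study's methods and the submitters' processing notes. Gene positions are those of GENCODE on GRCm38, the assembly also called mm10. The members and all gene lists were chosen with earlier results of these data known. No columns of the authors' own comparisons were used.

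Cells with at least 300 genes and at most 30% mitochondrial UMIs were kept. Members were the cells with at least 3 UMIs of Tnnt2 and Npnt, and levels were UMIs summed over cells per 1000000 UMIs. Doublets were called by simulation and kept, with an alternative without them. The 15 genes listed as higher and 10 as lower were those with the largest smaller-of-both-libraries log2 fold among genes of at least 50 CPM in the higher group, outside the genes of the rules. For the plates the same genes and up to 5 called genes each way were named. The genes of cells with over 10 UMIs were chosen after their values were seen. Some of these genes are not reported here.

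A Smart-seq2 well was dropped for too few reads, too few genes or too much ERCC spike-in, each limit set 3 median absolute deviations from the median over all wells. The rest were grouped by the layout's mouse names. Read counts were summed per portion and class, for portions with at least 5 wells of each class, and tested with edgeR 4.0.16 (quasi-likelihood, TMM, low-count filter, Benjamini-Hochberg adjusted p of 0.05) with portion as a block, or with plate as a term between conditions. The block follows from the layout, since both classes of a portion come from 1 mouse. The correlation of the classes' deviations ran from -0.035 to 0.16, and 4 of 14 portions correlated best with their own. Plate 6 was left out because its protocol per mouse was not given in the sources used here. DESeq2 1.42.0 was an alternative. Shares were compared by exact permutation tests in SciPy 1.17.1, without regard to plate.

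The edgeR step was tested on simulated counts with gene-wise dispersions and changes in the most abundant genes, after a first version, with 1 common dispersion and changes spread over less abundant genes, recovered few of them. In the class comparison 38 of 68 genes changed 2-fold, 65 of 66 changed 4-fold and 66 of 66 changed 16-fold were called, with 1 false call among 10706 genes. This recovery holds for abundant genes only. Apart from depth, the simulated counts held no portion or plate differences.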

Additional observations from a re-analysis of the deposited data

Results flagged for a closer look

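Among 15 groups of 4 or 5 portions examined, 2 held a portion far from the others, where chance alone sets about 1 in 20 apart. Proser2 was at 62.7 RPM in member wells of 1 CCl4 portion of plate 5, and the other CCl4 portions lay between 5.87 and 9.68 RPM. Higd1b was at 104 RPM in member wells of 1 CCl4 portion of plate 3, and the other CCl4 portions lay between 23.9 and 32.2 RPM. Both genes had passed the comparison of member with reference wells.

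Tnnt2 was also present outside protocol 1. In the protocol 2 library taken 72 h after CCl4 it was at 21.1 CPM (20.1 to 22.1), against 0.69 CPM in the uninjured and 1.302 CPM in the 6-week CCl4 library of protocol 2. In that library 193 of 7310 cells held at least 3 UMIs of Tnnt2 and Npnt, against 2 of 6850 uninjured cells and 7 of 5454 cells after 6 weeks. Npnt gave 1 UMI there, and Actg2 was at 19.7 CPM. Each of these is 1 library, so the difference has no replicate check.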

How the results depend on the processing

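The share of members followed the rule. Among uninjured and CCl4 cells it was 13.1% and 20.9% at 2 UMIs, 4.95% and 7.99% at 5, 0.837% and 1.35% with both genes required, and 5.64% and 7.13% after thinning to 2000 UMIs. Without cells of 4 or more fibroblast UMIs, an alternative chosen after seeing the data, members were 35.8% of CCl4 members and reference cells. Against 9 genes higher and 10 lower in both 10X libraries, 20 were higher at 5 UMIs, 35 lower with 10 contractile UMIs required, 40 higher and 181 lower in members without fibroblast UMIs, 24 lower without doublets and 16 lower in contractile cells without fibroblast UMIs. Log2 folds turned for Tmod1 (-0.021), Vstm4 (-0.30), Ccdc3 (-0.044) and Peli2 (-0.48) in the last of these settings, for Vstm4 (-0.16) and Gm12840 (-0.00027) without cells of 4 or more fibroblast UMIs, and for Ccdc3 (-0.0060) after thinning. Ptn turned to 1.67 and 1.26 without cells of 4 or more fibroblast UMIs and to 0.36 and 1.88 in contractile cells without them, in uninjured and CCl4 cells.

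On the plates, edgeR called 3 genes higher and 1 lower. DESeq2 called 147 and 114, no filter on low counts 5 and 6, plate as the replicate 22 and 14, members at 100 RPM 11 and 9, at 1000 RPM 6 and 5, contractile members 10 and 4, and uninjured portions alone 0 and 0. Without the replicate block 2 were higher and 0 lower, and with portions of the same mouse name merged 4 were lower. Leaving out 1 plate at a time gave 2 to 3 higher and 1 to 2 lower. Actg2 passed in all of these but uninjured portions alone, Cnn1 and Higd1b in all but that and no replicate block (adjusted p of 0.064 and 0.063), and Proser2 kept its call in 9 of 16 alternatives that gave it a value. Folds that had not passed turned for Klf4 (-0.24 at 1000 RPM, -0.011 in contractile members), Ptn (-0.58 in contractile members, -0.46 in uninjured portions) and Gpbar1, which went from -0.0064 to 0.054 without the block, 0.0096 by plate, 0.027 at 1000 RPM, 0.065 in contractile members, 0.29 without fibroblast wells, 0.15 merged, 0.084 with plate 6 and -0.15 to 0.17 on leaving out 1 plate. Between conditions DESeq2 called 122 higher and 45 lower for BDL and 95 and 60 for CCl4, and no filter 45 and 22, and 24 and 1, where edgeR with its filter called 0. Differences in share turned at 100 RPM (0.16 for BDL minus uninjured, -0.48 for CCl4 minus BDL), over all wells (-1.07 for CCl4 minus BDL) and without plate 3 (2.66 for CCl4 minus uninjured, with -10.2 the lowest on leaving out a plate), in points. On leaving out 1 plate, BDL minus uninjured ran from -16.7 to -4.07 points and CCl4 minus BDL from 2.96 to 6.74. The causes were not tested. Depth limits low genes, such as Npnt with 130 and 253 UMIs and Proser2 with 16 and 19 UMIs in members, and 1 library per condition leaves 10X differences without a replicate check.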
